A study of Mus musculus with 9 samples.

Results

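The oncofetal liver tumour markers are genes that fetal liver or other fetal tissues use strongly, that adult liver uses little or not at all, and that can return in hepatocellular carcinoma (HCC). The set named 9 mouse genes: Afp, H19, Dlk1, Gpc3, Golm1, Vil1, Igf2bp3, Spp1 and Cd24a. A gene was measured where a probe set of the array carried its symbol and no other symbol. This gave 7 of the 9 members, read by 19 of the 45101 probe sets on the array. Afp had 5 probe sets, Igf2bp3 6, Cd24a 3, Dlk1 2, and Golm1, Gpc3 and Vil1 had 1 each. The probe set of H19 also carries the symbol of the microRNA gene Mir675 and was left out for that reason, and Spp1 was not analysed here. A gene with several probe sets was represented by its brightest one, taken over all 9 arrays, which gave 18193 genes in all.

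The study compared 5 HCCs of TKO mice with 4 normal livers, 1 Affymetrix Mouse Genome 430 2.0 array per sample. The tumour mice are titled triple knockout, but their listed genotype is RbΔ/Δ, p130Δ/Δ and p107+/-, which as written leaves p107 an intact copy. The title and the listed genotype differ on p107, and the arrays cannot settle which holds. They had received Ad-Cre, an adenovirus that carries Cre recombinase, by intrasplenic injection, and the tumours were taken 4 months later. The normal livers came from wild-type adult mice without tumours, and no injection is listed for them, so the effects of genotype, virus and tumour state cannot be told apart. RNA of both groups was isolated with Trizol and amplified in a pair of rounds. Age in weeks, sex and strain are not given in these sources, and no label says whether separate animals gave the samples of a group. The p-values therefore cover only the spread between these samples, which may be partly technical, and precision is limited by how few arrays there are.

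As background, the fetal liver programme is shut off around birth by repressors that include Zhx2 and Zbtb20, and loss of either leaves Afp on in adult mouse liver. Afp is the main fetal serum protein and lies beside the albumin gene. H19 and Dlk1 are imprinted genes of embryonic growth, and H19 shares its control region with Igf2. Gpc3 is a heparan sulfate proteoglycan held at the cell surface by a lipid anchor, and it is used as a tissue marker of human HCC. Golm1 (GP73) is a Golgi membrane protein released into serum in liver disease, Vil1 (villin) bundles actin in microvilli, and Igf2bp3 binds messenger RNAs, those of Igf2 among them. Cd24a is a small glycosylated surface protein of progenitor and immune cells.

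The markers did not behave as a single block. Golm1 and Vil1 were far higher in all 5 tumours than in any of the 4 livers. Afp and Gpc3 were high in some tumours and at or below the liver level in 1 of them, and neither passed the test. Of Igf2bp3, 5 of 6 probe sets rose while the brightest did not pass. Dlk1 and Cd24a did not pass on any probe set. On limma's test (adjusted p under 0.05, Benjamini-Hochberg, all genes), 2 of the 7 members rose and 0 fell (at an unadjusted p under 0.05, 3 rose and 0 fell), against 16.1% of all genes higher and 17.4% lower. The groups did not overlap and the tumours were higher for 2 of the 7, against 14.0% of all genes. The median log2 difference, TKO HCC minus normal liver, was 1.67 over the 7 members and -0.08 over all genes. Among 7 genes, the 2 that rose are close to what the background share gives, and the list itself was not tested.

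Promoter sequences are shown for the pair of members that rose in every tumour and for the pair whose tumours ranked alike on their main probe sets. They run 5′ to 3′ on the strand of the gene, from 250 bases before to 50 bases after its start, and come from RefSeq with the build GRCm38.p6, which held an entry for 6 of the 7 measured members. Capitals mark matches on either strand to 4 motifs: the E2F site (TTTCCCGC, TTTCGCGC, TTTGGCGC or TTTGCCGC), the HNF1 half-site GTTAAN, the TATA box TATAAA and the GC box GGGCGG. Afp lies on the plus strand at chr5:90490464-90490763, Gpc3 on the minus strand at chrX:52613925-52614224, Golm1 on the minus strand at chr13:59675735-59676034 and Vil1 on the plus strand at chr1:74409134-74409433.
Afp: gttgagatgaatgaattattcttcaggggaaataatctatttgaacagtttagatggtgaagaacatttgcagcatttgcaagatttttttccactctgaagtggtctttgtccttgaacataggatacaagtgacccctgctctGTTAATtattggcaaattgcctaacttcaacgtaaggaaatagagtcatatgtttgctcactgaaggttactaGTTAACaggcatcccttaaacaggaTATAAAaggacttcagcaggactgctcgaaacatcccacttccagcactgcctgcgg
Gpc3: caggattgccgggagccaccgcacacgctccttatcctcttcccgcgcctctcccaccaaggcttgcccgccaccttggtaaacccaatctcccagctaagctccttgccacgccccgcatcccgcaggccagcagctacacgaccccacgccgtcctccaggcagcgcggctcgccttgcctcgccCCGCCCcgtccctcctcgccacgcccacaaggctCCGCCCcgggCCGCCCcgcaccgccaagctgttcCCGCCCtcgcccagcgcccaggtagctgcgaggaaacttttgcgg
Golm1: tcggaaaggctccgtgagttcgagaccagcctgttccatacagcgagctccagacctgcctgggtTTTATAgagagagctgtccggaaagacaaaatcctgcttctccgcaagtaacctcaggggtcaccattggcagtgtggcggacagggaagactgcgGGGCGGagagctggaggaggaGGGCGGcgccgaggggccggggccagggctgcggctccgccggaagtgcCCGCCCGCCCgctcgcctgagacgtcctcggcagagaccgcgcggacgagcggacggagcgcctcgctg
Vil1: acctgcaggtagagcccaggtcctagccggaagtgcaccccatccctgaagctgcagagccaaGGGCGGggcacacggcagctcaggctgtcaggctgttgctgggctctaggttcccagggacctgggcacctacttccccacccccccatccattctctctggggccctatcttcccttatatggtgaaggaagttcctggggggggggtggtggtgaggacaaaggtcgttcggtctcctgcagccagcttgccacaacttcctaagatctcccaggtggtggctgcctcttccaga

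The 4 windows were built differently. That of Afp was poor in G and C (40.0%, against a median of 52.7% over 32851 mouse promoters of the same 300 bases) and held 2 HNF1 half-sites and 1 TATA box. HNF1 is a liver transcription factor long known to act on this promoter. Those of Gpc3 (70.7%) and Golm1 (67.0%) were rich in G and C and held 4 GC boxes each, some of them overlapping in Golm1, which also held 1 TATA box on the opposite strand. That of Vil1 (61.7%) held 1 GC box. No E2F motif was matched in any of the 6 windows. Of all promoters, 24.1% held the HNF1 half-site, 13.6% the TATA box, 35.7% the GC box and 2.26% the E2F motif, and the absence of a match says only that these letters are not in these windows. Afp and Gpc3, whose tumours ranked alike on their main probe sets, shared none of the motifs searched within these windows.

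**Figure D1:**
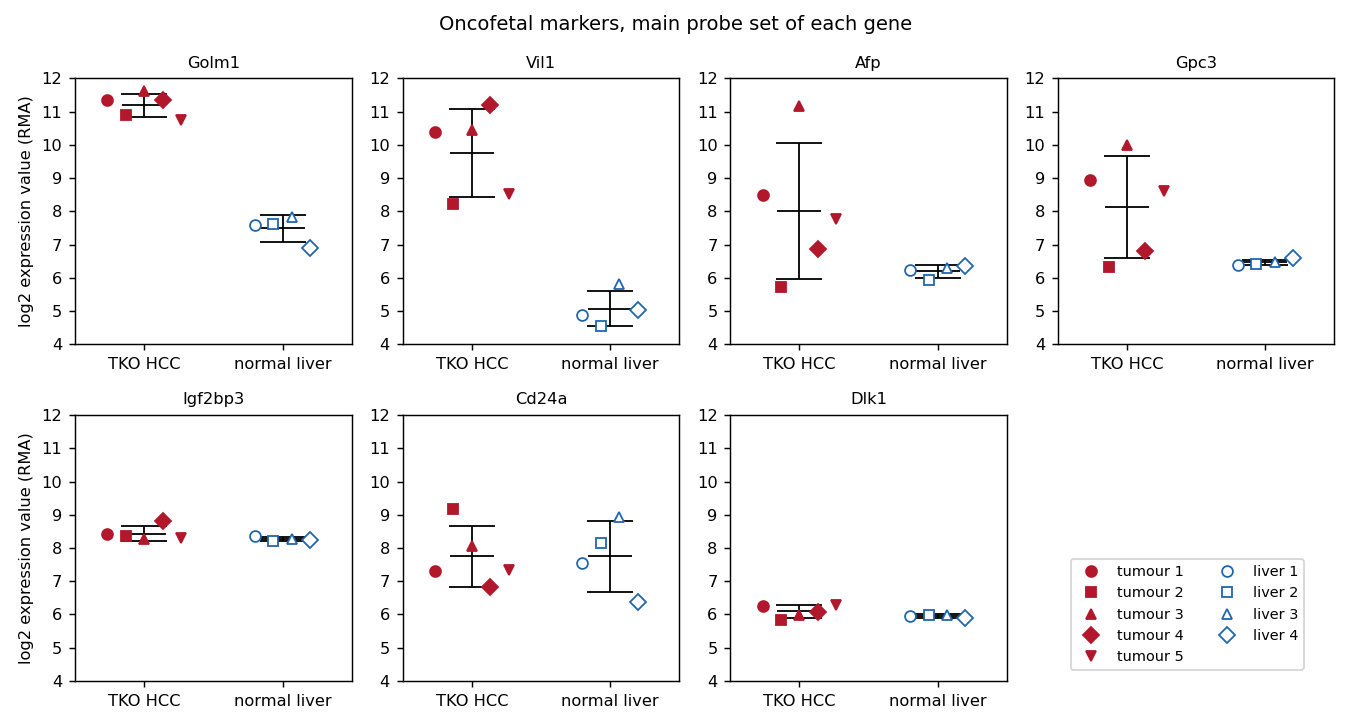
Log2 expression value (RMA) of the main probe set of each measured marker in 5 TKO HCCs (filled, left) and 4 normal livers (open, right), with the mean and SD of each group as lines. Golm1 and Vil1 lie apart between the groups, Afp and Gpc3 spread widely among tumours and hardly among livers, and Igf2bp3, Cd24a and Dlk1 overlap.

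Among the secreted and surface markers, Afp came first. On its main probe set (1416646_at) the tumours had log2 values of 8.50, 5.71, 11.18, 6.87 and 7.78 in tumours 1 to 5, against 6.23, 5.92, 6.30 and 6.35 in livers 1 to 4. Tumour 3 was 31.6 times the liver mean and tumour 1 4.92 times, whereas tumour 2 was at 0.714 of it and below every liver, so the groups overlapped. TKO HCCs averaged 8.01 ± 2.06 (SD, n = 5) and normal livers 6.20 ± 0.20 (SD, n = 4), differing by 1.81 log2 units (SE 0.915, 95% interval -0.255 to 3.87) that did not pass with limma (adjusted p = 0.153). In the exact permutation test over all splits of the 9 arrays the two-sided p of Afp was 0.111, where the smallest this design allows is 0.00794. The value rested most on tumour 3, without which the difference was 1.01 (adjusted p = 0.174), whereas leaving out tumour 2 gave 2.38, which passed with limma (adjusted p = 0.0468).

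The other probe sets of Afp fell into 2 kinds. On 1416645_a_at the tumours had 8.73, 3.60, 11.87, 7.25 and 8.17, against 4.37, 3.95, 4.85 and 5.11 in livers, a log2 difference of 3.35 (SE 1.32, adjusted p = 0.0861 with limma over all probe sets). On 1436879_x_at the tumours had 5.18, 3.91, 7.83, 5.17 and 5.25, against 4.08, 3.98, 3.70 and 4.18 in livers, a difference of 1.48 (SE 0.635, adjusted p = 0.109). These 2 probe sets repeated the main one in that tumour 3 was highest and tumour 2 lowest among tumours. The remaining 2 were flat: 1436880_at ranged from 4.99 to 5.15 in tumours and from 5.05 to 5.26 in livers (difference -0.0266), and 1436881_x_at from 4.27 to 4.97 in tumours and from 4.41 to 4.69 in livers (difference 0.137). The TrpnX control, a bacterial sequence with no target in mouse RNA, read 3.69 to 4.36, so the lowest Afp values are near the floor of the array and folds there are understated.

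The neighbours of Afp did not follow it. Alb, the adult serum albumin gene, had 15.53, 15.42, 15.51, 15.51 and 15.55 in tumours 1 to 5, against 15.48, 15.49, 15.49 and 15.21 in livers, a difference of 0.085 that did not pass (adjusted p = 0.434). These values are at the top of the scale of the array, where differences are compressed. Afm, which encodes afamin, another carrier protein of the same family, fell by 1.02 on the log2 scale (SE 0.178, adjusted p = 0.00262). Of the 3 measured genes of this neighbourhood, 0 rose and 1 fell.

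Gpc3 was also divided among tumours. Its single probe set (1450990_at) had 8.93, 6.32, 9.99, 6.82 and 8.62 in tumours 1 to 5, against 6.38, 6.41, 6.47 and 6.58 in livers. The livers were nearly equal, tumours 1, 3 and 5 stood well above them, tumour 4 just above, and tumour 2 below the lowest liver. Tumour 3 was 11.5 times the liver mean, tumour 1 5.53 times and tumour 5 4.47 times. TKO HCCs averaged 8.13 ± 1.53 (SD, n = 5) and normal livers 6.46 ± 0.09 (SD, n = 4), differing by 1.67 log2 units (SE 0.679, 95% interval 0.143 to 3.21, limma adjusted p = 0.0854). The exact two-sided permutation p of Gpc3 was 0.0873. Without tumour 3 the difference was 1.21 (adjusted p = 0.135) and without tumour 1 it was 1.48 (adjusted p = 0.156). Without tumour 2 it was 2.13 and passed (adjusted p = 0.0195), and without tumour 4 it was 2.00 and passed narrowly (adjusted p = 0.0492).

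Of the 12 measured glypicans, syndecans and heparan sulfate enzymes, 1 rose and 1 fell, with a median log2 difference of -0.299. Gpc4, another glypican, was 9.49, 9.45, 9.68, 9.15 and 9.41 in tumours, against 10.59, 10.62, 10.09 and 10.66 in livers, and fell by 1.05 (SE 0.144, adjusted p = 0.000715) with no overlap. Furin, the protease that cleaves Gpc3, rose by 0.546 (SE 0.167, adjusted p = 0.0331), a call that was lost under 11 of its 20 alternative settings, among them leaving out any of tumours 1, 2, 4 and 5 or livers 1 to 3 (0.467 to 0.593).

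Dlk1, a surface protein of hepatoblasts related to the Notch ligands, did not differ between the groups beyond the spread of the arrays. Its main probe set (1449939_s_at) had 6.26, 5.83, 5.99, 6.07 and 6.30 in tumours 1 to 5, against 5.95, 5.99, 5.99 and 5.88 in livers; the log2 difference was 0.135 (95% interval -0.103 to 0.372, adjusted p = 0.341). The other (1442724_at) had 5.24, 5.08, 4.93, 5.44 and 5.25 in tumours, against 5.34, 4.80, 4.98 and 4.59 in livers, a difference of 0.259 (adjusted p = 0.235 over all probe sets). On both the groups overlapped, and the upper bound of the first interval stands at 0.372 log2 units. Of 9 measured relatives of Dlk1 and preadipocyte genes, 4 rose and 0 fell, with a median of 0.336. They included the receptor gene Notch1, up by 1.65 (SE 0.201, adjusted p = 0.000375), the fatty acid carrier gene Fabp4, up by 2.22 (SE 0.395), and the transcription factor gene Cebpb, up by 0.464 (SE 0.111). With arrays centred on housekeeping genes Cebpb rose by 0.218 and did not pass. A second Fabp4 probe set gave 0.137 and did not pass (adjusted p = 0.566).

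Cd24a showed no difference between the group means, but on its main probe set a wide spread within both groups. Its main probe set (1448182_a_at) had 7.32, 9.17, 8.05, 6.84 and 7.35 in tumours 1 to 5, against 7.55, 8.14, 8.92 and 6.37 in livers. Tumour 2 was the highest array of all and liver 4 the lowest. TKO HCCs averaged 7.75 ± 0.90 (SD, n = 5) and normal livers 7.75 ± 1.07 (SD, n = 4), a difference of 0.000825 whose 95% interval, -1.3 to 1.3, leaves room for a change of over 2-fold in either direction (adjusted p = 0.999). The other probe sets differed by 0.305 (1416034_at) and 0.0219 (1437502_x_at), and tumour 2 was highest among tumours on all 3. On 1416034_at the livers spread less, with an SD of 0.369 against 0.937 in tumours.

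Cd24a is used by B cells, granulocytes and bile duct cells as well as progenitors, and in tissue RNA fewer cells of a type and less RNA per cell cannot be told apart. Of 7 measured lymphocyte markers 0 rose and 1 fell, a call lost without tumour 1, 2 or 5 or any of livers 1 to 3, and their mean level ran from 6.44 to 7.55 across tumours and from 6.81 to 7.63 across livers. Of 8 measured bile duct and progenitor markers 2 rose and 1 fell, and their mean level ran from 5.93 to 7.11 across tumours and from 6.02 to 6.44 across livers, lowest in tumour 2. Sox9 and Krt23 rose and Krt7 fell, while Krt19 (-0.261), Epcam (0.107), Cldn4 (-0.0924), Cftr (-0.0248) and Prom1 (1.28) did not pass. The part of these cells in the Cd24a values was not tested. Of 9 measured CD24 partners, 2 rose and 2 fell, with a median of -0.173. Selp, an adhesion receptor that binds CD24, fell by 1.01 (SE 0.243, adjusted p = 0.0122), was at -0.519 with the mean of its probe sets, and did not pass without the 3 arrays of low Xist (-0.963, adjusted p = 0.0569). Cd274, the checkpoint ligand PD-L1, fell by 0.59 (SE 0.173, adjusted p = 0.0278), a call lost under 7 of 20 alternative settings. The integrin gene Itga3 rose by 0.451 (SE 0.125), lost under 5 of 20 (0.205 with arrays centred on housekeeping genes), and Sirpa, a receptor gene of the don't-eat-me signal Cd47, rose by 0.848 (SE 0.29, adjusted p = 0.0495), the weakest of these calls, lost under 13 of 20 alternative settings.

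Golm1 was the most uniform of the markers that rose. Its single probe set (1415698_at) had 11.35, 10.90, 11.61, 11.34 and 10.74 in tumours 1 to 5, against 7.58, 7.62, 7.83 and 6.91 in livers. The lowest tumour lay far above the highest liver, and each tumour was between 9.55 and 17.4 times the liver mean. TKO HCCs averaged 11.19 ± 0.36 (SD, n = 5) and normal livers 7.48 ± 0.40 (SD, n = 4), 13-fold apart (log2 3.70, SE 0.227, 95% interval 3.19 to 4.21, limma adjusted p = 4.87e-06). Of 15 measured Golgi membrane and coat genes 2 rose and 0 fell, with a median of 0.0353. These were Golga5 at 0.282 and Golph3 at 0.271 (adjusted p = 0.0304 and 0.0278), each lost under 11 of 20 alternative settings. The list count moved both ways. It was 6 higher and 1 lower with the mean of probe sets, and 0 higher and 3 lower with arrays centred on the 75th percentile. On the main probe sets the size of the Golm1 difference was not seen across the other Golgi genes listed.

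Vil1 had the widest gap between the group means. Its single probe set (1448837_at) had 10.38, 8.21, 10.46, 11.20 and 8.52 in tumours 1 to 5, against 4.89, 4.55, 5.80 and 5.03 in livers. Every tumour lay above every liver, but tumours 1, 3 and 4 formed a higher set, 39.7 to 70.2 times the liver mean, and tumours 2 and 5 a lower one, 8.82 and 10.9 times. TKO HCCs averaged 9.75 ± 1.31 (SD, n = 5) and normal livers 5.07 ± 0.53 (SD, n = 4), 25.7-fold apart (log2 4.69, SE 0.617, 95% interval 3.29 to 6.08, limma adjusted p = 0.000586). Villin is also made by bile duct cells. Of their 8 measured markers 2 rose, Sox9 by 1.32 (SE 0.371) and Krt23 by 1.57 (SE 0.495), and 1 fell, Krt7 by 0.286 (SE 0.094). All 3 calls were lost without tumour 1, tumour 3, tumour 5 or liver 3 and with the replicate block. The part of these cells in the Vil1 difference was not tested.

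Of the 14 measured genes of the villin and gelsolin family and of microvilli, 4 rose and 2 fell, with a median of 0.44. Gsn (gelsolin), which severs actin filaments, had 11.34, 13.77, 10.43, 13.32 and 12.99 in tumours, against 8.91, 8.53, 8.92 and 8.56 in livers, and rose by 3.64 (SE 0.636, adjusted p = 0.00259). Its tumours did not follow those of Vil1, since tumour 2 was highest for Gsn and lowest for Vil1. Vill, which encodes a villin-like protein, rose by 0.888 (SE 0.179) and Flii by 0.439 (SE 0.0916), or 0.193 without passing when arrays were centred on housekeeping genes. Cdhr2 also rose, by 2.4 (SE 0.51, adjusted p = 0.00671), with every tumour above every liver. Espn (1.28, adjusted p = 0.062) and Svil (0.295, adjusted p = 0.0607) were higher in every tumour than in any liver but did not pass. Eps8 and Myo1a, both of the microvillus core, fell by 0.753 (SE 0.21) and 0.311 (SE 0.0778). The call of Eps8 was lost without liver 2 or liver 3.

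**Figure D2:**
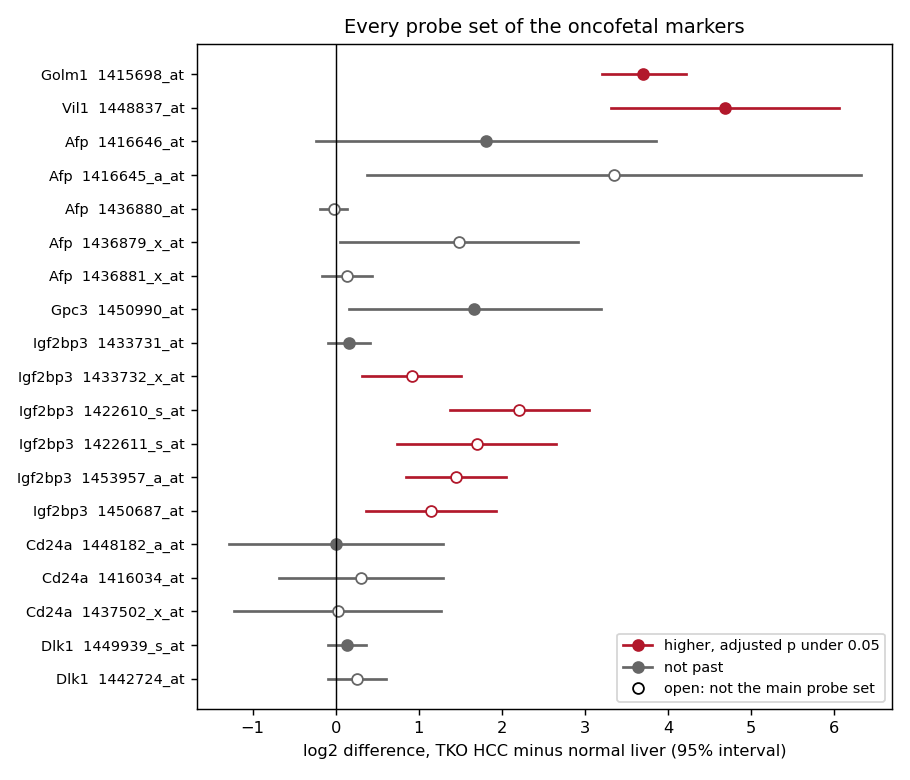
Log2 difference, TKO HCC minus normal liver, with its 95% interval, for all 19 probe sets of the 7 measured markers; filled points are the main probe set of each gene and red marks an adjusted p under 0.05. The 7 red probe sets are those of Golm1 and Vil1 and 5 of the 6 of Igf2bp3.

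Over single probe sets, 7 of the 19 rose and 0 fell on limma's test over all probe sets, against 13.5% of all probe sets higher. Of these, 5 belonged to Igf2bp3, and probe sets of 1 gene are not independent of each other. On the main probe set of Igf2bp3 (1433731_at) the tumours had 8.42, 8.35, 8.27, 8.81 and 8.31, against 8.35, 8.22, 8.27 and 8.25 in livers, a difference of 0.161 (95% interval -0.0972 to 0.42, adjusted p = 0.296). Tumour 4 stood farthest from the livers, tumour 1 lay just above the highest liver, and tumours 2, 3 and 5 lay within the range of the livers.

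The other 5 probe sets of Igf2bp3 gave another picture. On 1422610_s_at the tumours had 7.86, 6.89, 7.32, 8.96 and 8.25, against 5.40, 5.68, 6.01 and 5.49 in livers, a 4.63-fold difference (log2 2.21, SE 0.371, limma adjusted p = 0.0024). On 1453957_a_at the tumours had 6.27, 5.50, 6.03, 7.03 and 6.36, against 4.84, 4.61, 5.12 and 4.58 in livers, a log2 difference of 1.45 (SE 0.267, adjusted p = 0.0039). On both every tumour lay above every liver. On 1422611_s_at the tumours had 6.92, 5.84, 6.47, 7.77 and 7.05, against 4.91, 4.59, 6.21 and 4.73 in livers, a difference of 1.70 (SE 0.425, adjusted p = 0.0168), with liver 3 above tumour 2. On 1433732_x_at the tumours had 7.86, 7.59, 7.81, 8.82 and 8.29, against 7.27, 7.56, 7.14 and 6.65 in livers, a difference of 0.917 (SE 0.265, adjusted p = 0.03). On 1450687_at, the dimmest, the tumours had 5.30, 4.11, 4.82, 6.20 and 5.12, against 4.03, 3.72, 4.22 and 3.89 in livers, a difference of 1.15 (SE 0.347, adjusted p = 0.0362), but all 4 livers and tumour 2 lay within the range of the TrpnX control there, so that the size of the difference is uncertain and those 5 values have no order.

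Tumour 4 was highest on all 6 probe sets, and tumour 2 was lowest among tumours on the 5 that rose. With the mean of all its probe sets in place of the brightest, Igf2bp3 rose by 1.26 (limma adjusted p = 0.00828). Probe sets ending in s_at or x_at can also read transcripts of other genes, and 1422610_s_at, 1422611_s_at and 1433732_x_at end so. The other risen ones, 1453957_a_at and 1450687_at, do not, but 1450687_at is the one whose livers lay at the level of the control.

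**Figure D3:**
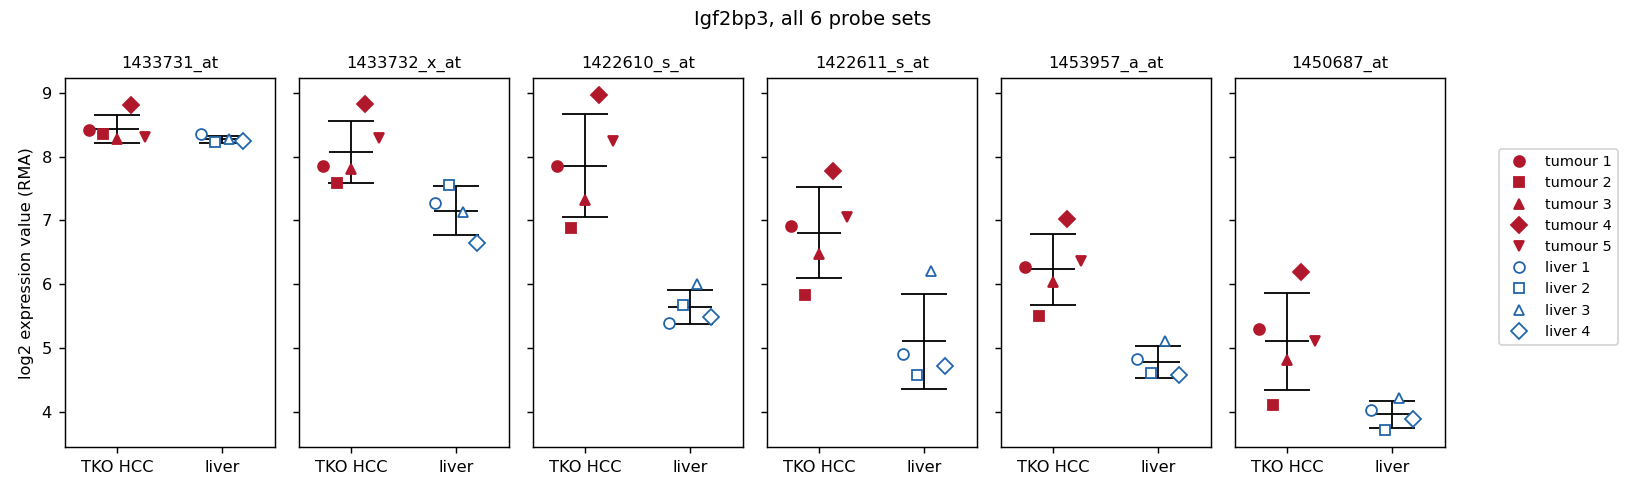
Log2 expression value (RMA) of the 6 Igf2bp3 probe sets in 5 TKO HCCs (filled, left) and 4 normal livers (open, right), with the mean and SD of each group as lines. On the brightest probe set tumour 4 is highest and tumours 2, 3 and 5 lie within the livers' range, whereas the other 5 have higher group means in tumours, and tumour 4 is the highest on all 6.

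Of 8 measured partners and targets of IGF2BP proteins 3 rose and 1 fell, with a median of 0.423. Igf2, the fetal growth factor whose messenger RNA Igf2bp3 binds, had 14.77, 15.09, 14.03, 6.87 and 14.86 in tumours 1 to 5, against 7.36, 7.33, 7.62 and 7.53 in livers. Tumours 1, 2, 3 and 5 were near the top of the scale, whereas tumour 4 lay below every liver. The log2 difference was 5.66 (SE 1.56, limma adjusted p = 0.0215). Without tumour 4 it was 7.23 (adjusted p = 2.36e-07), and without tumour 5, liver 1 or liver 2 it no longer passed (5.23, 5.63 and 5.62), nor without the 3 arrays of low Xist (4.48). A second Igf2 probe set had 9.94, 10.49, 8.83, 5.11 and 10.20 in tumours, against 5.43, 4.92, 5.25 and 5.30 in livers. The tumour with the lowest Igf2 was thus the one with the highest Igf2bp3. Tumour 2, which had the highest Igf2, had the lowest Igf2bp3 on the 5 probe sets that rose. Between these extremes the order was shared, which so few tumours can easily do. Tumours 5, 1 and 3 ran from high to low for Igf2, and also on the rising Igf2bp3 probe sets ending in s_at, x_at or a_at. On the main Igf2 probe set tumours 5 and 1 were nearly equal (14.86 and 14.77). A relation between Igf2 and Igf2bp3 was not tested.

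Myc, another listed target, rose by 0.871 (SE 0.174) and Actb by 0.895 (SE 0.111), while Ccnd1, the G1 cyclin gene, fell by 2.56 (SE 0.378, adjusted p = 0.00108). Actb is also a housekeeping gene, and its call depended on the probe set. Where probe sets ending in s_at, x_at or a_at were left out, the difference was 0.149 and did not pass (adjusted p = 0.162). Igf2bp1, the closest relative of Igf2bp3, differed by -0.0248 (adjusted p = 0.792), and 0 of its 4 probe sets passed, with differences of -0.128 to -0.0248.

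Among the regulators of the fetal programme, Igf2 had by far the widest difference between the group means. Of the 15 measured genes 2 rose (Igf2 and Foxa1), 1 fell (Sall4) and 12 did not pass, with a median log2 difference of 0.0745. Zhx2, the repressor of Afp and Gpc3 in adult mouse liver, had 7.94, 7.88, 8.16, 7.86 and 8.12 in tumours 1 to 5, against 7.68, 7.76, 7.78 and 8.13 in livers, a difference of 0.155 (95% interval -0.101 to 0.412, adjusted p = 0.31). Zbtb20, the other known repressor of Afp, had 11.01, 10.11, 9.87, 9.66 and 10.13 in tumours, against 9.90, 9.93, 9.94 and 10.32 in livers, a difference of 0.134 (95% interval -0.421 to 0.688). Its 9 probe sets differed by -0.302 to 0.406 and 0 of them passed. Tumour 3, which had the most Afp, had the highest Zhx2 of all arrays (8.16). For Zbtb20 it lay just below every liver on the main probe set (9.87), where tumour 4 was lower still (9.66). On the other Zbtb20 probe sets tumour 3 lay below every liver on some and within their range on the rest. Tumour 4 was lower than tumour 3 on each. A relation between the repressors and Afp was not tested. The related genes Zhx1 and Zhx3 differed by -0.267 and 0.0219 without passing.

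Foxa1, a pioneer transcription factor of liver, had 10.00, 9.87, 9.69, 9.76 and 9.65 in tumours, against 9.03, 8.65, 8.80 and 9.77 in livers, and rose by 0.732 (SE 0.21, adjusted p = 0.0255). The call was lost with arrays centred on housekeeping genes (0.486), without tumour 1 (0.68) or without any of livers 1 to 3 (0.593 to 0.722). Foxa2, its relative, had 10.05, 11.26, 10.07, 10.20 and 10.29 in tumours, against 9.61, 10.04, 9.65 and 9.59 in livers, a difference of 0.648 that did not pass (adjusted p = 0.0695), although every tumour lay above every liver. Foxa3 and Cebpa, both of adult hepatocytes, differed by 0.245 and 0.257, and Nr2f2 by 0.0745, none passing.

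Sall4, a stem cell factor of fetal liver, had 5.75, 5.61, 5.68, 5.50 and 5.61 in tumours, against 5.96, 5.84, 6.16 and 6.58 in livers, and fell by 0.508 on the log2 scale (SE 0.142, adjusted p = 0.0229). Its other probe set differed by 0.0247 and the mean of both by -0.242, and the call was lost without liver 3 (-0.498). Lin28a and Lin28b, which block let-7 microRNAs in fetal cells, differed by -0.0571 and -0.0777 and lay within or below the range of the TrpnX control in both groups. Hmga2, a let-7 target, differed by -0.0435. None of these 3 passed.

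**Figure D4:**
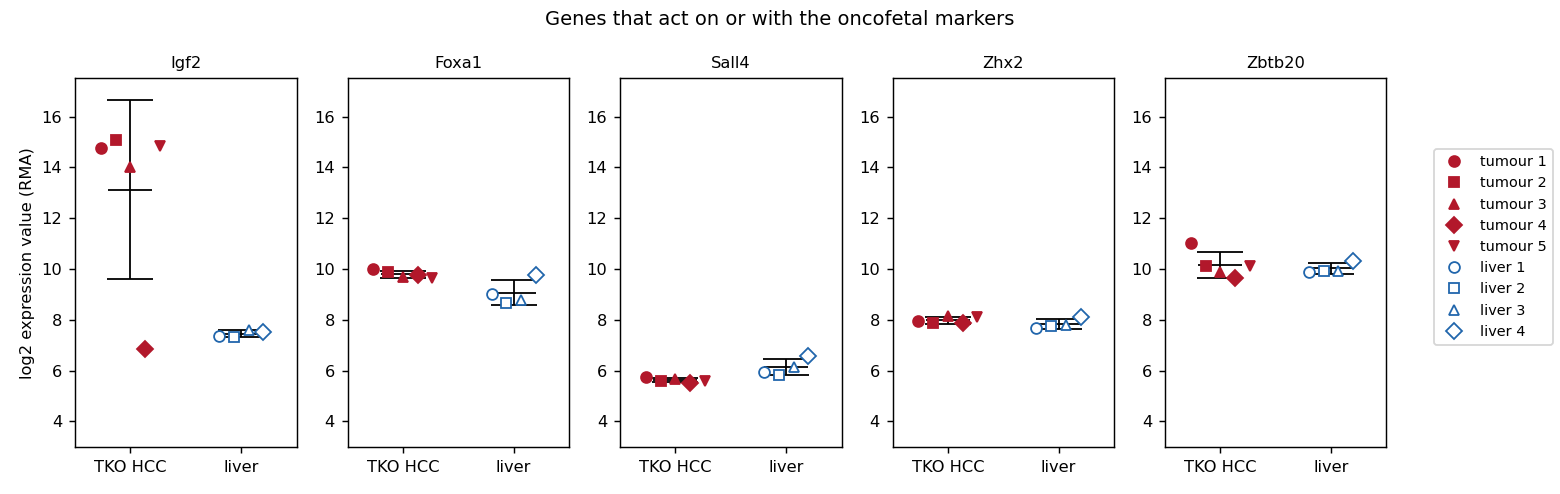
Log2 expression value (RMA) of Igf2, Foxa1, Sall4, Zhx2 and Zbtb20 in 5 TKO HCCs (filled, left) and 4 normal livers (open, right), with the mean and SD of each group as lines. Igf2 is high in 4 tumours and below every liver in tumour 4, and the repressors Zhx2 and Zbtb20 overlap between the groups.

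Whether the members varied together across tumours could only be described. With 5 tumours a correlation is not given, and over all 9 arrays the groups form separate clusters. The SD among tumours was 2.06 for Afp, 1.53 for Gpc3, 1.31 for Vil1 and 0.904 for Cd24a, and these 4 of 7 members were above 0.5, as were 13.2% of all genes. Afp ranked 66th, Gpc3 158th, Vil1 253rd and Cd24a 737th of 18193 genes by that SD. Among livers the SD was 0.195 for Afp and 0.0906 for Gpc3, so the tumours spread 10.5 and 16.8 times as widely as the livers. For Golm1, and for Cd24a on its main probe set, the tumours spread less than the livers, 0.896 and 0.842 times. On the other Cd24a probe sets the tumours spread more. The SD was 0.937 in tumours against 0.369 in livers on 1416034_at, and 0.962 against 0.943 on 1437502_x_at.

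**Figure D5:**
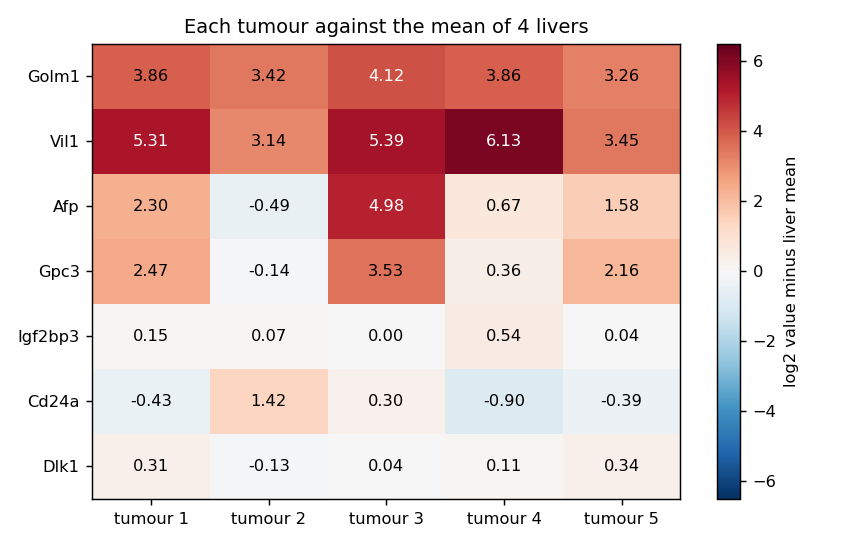
Log2 value of each tumour minus the mean of the 4 livers, for the main probe set of each measured marker (colour and number). Afp and Gpc3 share an order of tumours, 3 highest and 2 lowest, Vil1 is highest in tumour 4, and Cd24a is highest in tumour 2.

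On their main probe sets Afp and Gpc3 ranked the 5 tumours in the same order: tumour 3 highest, then 1, 5, 4 and 2. Of all genes, 243 (1.34%) had that order. Both also had tumours 1, 3, 4 and 5 above every liver and tumour 2 below every liver, as had 134 genes (0.737%). That pattern was counted after the values had been seen. For Gpc3 tumour 2 was only just below the lowest liver (6.32 against 6.38). Afp 1416645_a_at repeated the pattern, but on 1436879_x_at tumour 2 (3.91) lay within the range of the livers, and the flat probe sets did not show it. The other members ranked the tumours otherwise. Golm1 ran 3, 1, 4, 2, 5 and Vil1 4, 3, 1, 5, 2 from high to low. Dlk1 ran 5, 1, 4, 3, 2, within a range of 0.471 log2 units, Cd24a ran 2, 3, 5, 1, 4, and Igf2bp3 ran 4, 1, 2, 5, 3. On the main probe sets of the 7 members, tumour 2 was lowest for 4 and highest for 1, tumour 3 was highest for 3, and tumour 1 was above every liver for 6. There the order agreed in full for only 1 pair of members, and Cd24a put first the tumour that Afp, Gpc3, Vil1 and Dlk1 put last. The orders depended on the probe set. Afp 1416645_a_at kept the main order, but 1436879_x_at ran 3, 5, 1, 4, 2. Dlk1 1442724_at ran 4, 5, 1, 2, 3, and the rising Igf2bp3 probe sets put tumour 2 last.

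Some measures of the whole arrays also differed among the tumours, without following that order in full. Over all genes, the root mean square log2 distance from the liver mean was 0.98, 0.81, 0.97, 0.84 and 0.90 for tumours 1 to 5, against 0.27 to 0.45 for livers, so tumours 1 and 3 were farthest from liver and tumour 2 nearest. The mean level of 10 hepatocyte markers was 12.55, 13.41, 12.56, 14.00 and 13.38 in tumours 1 to 5, against 14.07 to 14.32 in livers. It was lowest in the 2 tumours with the most Afp and Gpc3, but highest in tumour 4 and not in tumour 2. Of those markers 0 rose and 3 fell (Pck1, G6pc and Tdo2), and 1 fell without tumour 1, tumour 3, liver 1, liver 3 or liver 4, with Xist as a covariate or without the 3 arrays of low Xist, against 5 with arrays centred on the 75th percentile. Among tumours the SD was 2.37 for Pck1, 1.74 for G6pc and 1.48 for Tat, but under 0.1 for Alb, Apoa1, Ttr and Serpina1c, which were near the top of the scale. The mean level of 10 stellate cell and fibroblast markers, of which 2 rose and 4 fell (1 and 3 without liver 1, 2 and 2 without liver 3), was 8.44, 8.67, 9.93, 8.81 and 9.41 in tumours 1 to 5, highest in tumour 3 and lowest in tumour 1, and 9.12 to 9.65 in livers. Proliferation genes, 9 of 9 higher with a median of 5.58, had a mean level of 11.72 to 12.09 in tumours and 6.52 to 6.78 in livers and so hardly varied among tumours. The log2 ratio of 3' to 5' probe sets of the Actb control ran from 0.53 to 0.72 across tumours and from 0.91 to 1 across livers. That of the Gapdh control ran from -0.24 to -0.18 across tumours and from -0.32 to -0.21 across livers, so there the groups overlapped. Of 10 macrophage markers 0 rose and 5 fell, and others such as Cd68 (0.686) and C1qa (0.0803) did not pass. Of 8 endothelial markers 0 rose and 4 fell, and Pecam1 (0.398) was among those that did not pass. Of 4 erythroid markers 0 passed, but 3 fell with arrays centred on the 75th percentile. The part of these measures in the marker values was not tested.

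Prom1 and Cd44 set tumour 2 apart as Cd24a did, but in the other direction. Prom1, a surface marker of progenitor cells, had 10.31, 4.92, 10.59, 9.39 and 9.27 in tumours 1 to 5, against 7.66, 7.88, 9.06 and 5.85 in livers. Cd44, an adhesion receptor that binds hyaluronan and osteopontin, had 9.91, 7.15, 10.68, 9.78 and 10.29 in tumours, against 9.10, 8.89, 9.13 and 7.50 in livers. Neither passed between the groups (adjusted p = 0.401 and 0.325), and in both tumour 2 was the lowest tumour, where Cd24a was highest. These 2 genes were picked after their values were seen. Of the 16 measured osteopontin receptors and relatives, listed because of Spp1, 2 rose and 3 fell, with a median of -0.0339. The integrin genes Itga5 and Itgb5 rose by 1.83 (SE 0.154) and 1.37 (SE 0.171), and Itgb3 and the protease gene Mmp7 fell by 0.421 (SE 0.0869) and 0.463 (SE 0.116). The call of Mmp7 was lost without the 3 arrays of low Xist (adjusted p = 0.0709) and with the replicate block (adjusted p = 0.0806). The difference of Itga5 was 0.761 with the mean of its probe sets and 0.561 where probe sets ending in s_at, x_at or a_at were left out.

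The genes whose tumour values came closest to a member's were named by the root mean square difference of values centred on the tumour mean, over 5 tumours. For Afp, among 531 genes, they were Abcc4, an efflux transporter (0.436 log2 units), Kdelr3, a retrieval receptor of the endoplasmic reticulum (0.685), and Cyp2b9, a cytochrome P450 (0.721). Gpc3 was the fourth for Afp at 0.722. Kdelr3 had 9.30, 5.54, 10.14, 7.27 and 8.51 in tumours, against 5.76, 5.84, 5.73 and 5.99 in livers, and it too had tumour 2 below every liver. So had Abcc4 (6.86), but its livers (8.03, 8.09, 9.35 and 7.04) lay among its other tumours. For Cyp2b9, livers 1 to 3 (11.85, 12.79 and 12.66) lay above every tumour and liver 4 (4.40) below every tumour. For Gpc3, among 1070 genes, they were Dusp4, a phosphatase of MAP kinases (0.294), Osmr, the oncostatin M receptor (0.318), and Plch1, a phospholipase C (0.369), and Afp was 57th at 0.722.

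For Vil1, among 1422 genes, the closest were Akr1b8, an aldo-keto reductase (0.254), Slc22a7, an organic anion transporter (0.296), and Nenf, a secreted protein (0.353). None of these 3 passed between the groups, and Akr1b8 averaged 7.53 in tumours and 7.83 in livers, so likeness among tumours did not go with a like difference from liver. For Cd24a, among 2877 genes, the closest were Kitl, the ligand of the Kit receptor (0.144), Fam120c (0.149) and Dnase2a, a lysosomal nuclease (0.229). Kitl had 7.21, 9.24, 8.22, 7.11 and 7.64 in tumours, against 8.01, 7.91, 8.16 and 8.02 in livers, so tumour 2 stood above every liver for it as for Cd24a. Dnase2a had tumour 2 above every liver as well. Fam120c fell by 1.51 (SE 0.418, limma adjusted p = 0.0222), and its tumour 2 (7.21) lay within the range of the livers. With 5 tumours many genes can match a pattern, and these names are a description of these arrays.

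Of the targeted genes, Rbl2 (p130) fell by 1.99 (SE 0.303), Rb1 rose by 1.05 (SE 0.171) and Rbl1 (p107) differed by -0.18 without passing, and probe sets outside the deleted parts check nothing about the genotype. Pearson's r between arrays, across probe sets, ranged from 0.966 to 0.984 within the tumours, from 0.981 to 0.992 within the livers and from 0.925 to 0.951 across the groups. Xist, expressed from the inactive X chromosome of females, was low in tumours 1 and 2 and liver 4 (6.34 to 6.66). It was 12.68 or more in the other 6 arrays. The Y-linked genes Eif2s3y and Uty were high in those 3 arrays (9.16 to 10.3 and 6.28 to 7.83). In the other 6 they were low (3.55 to 4.32 and 3.64 to 3.97). The labels give no sex, but by these genes tumours 1 and 2 and liver 4 read as male and the other 6 arrays as female. Without the 3 arrays of low Xist the members past the threshold were again 2, Golm1 (3.55) and Vil1 (4.98). Afp (2.46) and Gpc3 (2.06) did not pass there, and Cd24a moved to -0.789 (limma adjusted p = 0.208). Igf2 no longer passed (4.48, limma adjusted p = 0.142). The part of sex in the marker values was not tested.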

How the data were processed

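The authors deposited log2 values, 1 for each probe set and array. The submitters' processing notes name RMA as the method, with neither version nor settings, and the sources used here give no scan batch. RMA compresses differences of dim probe sets, and RNA amplified from its 3' end can be shortened. Samples were grouped by title, and every sample column was used. Of 45101 probe sets, 34945 named 1 gene on the platform, 932 several (not used), 9160 none and 64 were controls. Of those naming 1 gene, 34741 were found by gene ID in RefSeq's table.

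Groups were compared with limma 3.58.1 in R 4.3.3 (lmFit and eBayes, two-sided, no covariate), adjusted by Benjamini-Hochberg over 18193 genes, or over 45037 probe sets for single probe sets, at a threshold of 0.05, after the script was tested on simulated data. Plots used matplotlib 3.10.9. Same-numbered tumours and livers did not deviate together (correlations of -0.13, -0.07, 0.18 and -0.12). This gave no sign of a pairing by number, but so few arrays cannot exclude one. The most similar arrays were 0.295 log2 units apart (root mean square), and none was taken for a duplicate.

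The members and gene lists were chosen with earlier results of these data known. Named genes were the members, all fetal regulators, the targeted genes, up to 3 list genes past the threshold in the list's main direction and up to 2 the other way by adjusted p, and, for members with a tumour SD over 0.5, the 3 closest genes whose own SD was at least 0.5 of the member's. Alb, Cd44, Cdhr2, Espn, Svil, Eif2s3y, Uty and further hepatocyte, bile duct, macrophage and endothelial markers were added after their values were seen. Alternatives changed scaling, filters, probe set summaries, moderation, arrays left out, the replicate block and Xist.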

Additional observations from a re-analysis of the deposited data

Results flagged for a closer look

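Some samples stood far from the others of their group, by the gap to the nearest sample divided by the range of the group. Of 190 groups checked, 20 held such a sample, and chance alone gives about 1 in 20 groups. Among the markers, tumour 4 had 8.81 for Igf2bp3 (1433731_at) against 8.27 to 8.42 in the other tumours, and tumour 2 had 4.99 for Afp (1436880_at) against 5.11 to 5.15. Tumour 4 had 6.87 for Igf2 against 14.03 to 15.09 in the other tumours, and 9.0 for Foxa3 against 10.04 to 10.39. Tumour 2 had 11.26 for Foxa2 against 10.05 to 10.29, 10.66 for Itgb5 against 11.40 to 11.55, 4.92 for Prom1 against 9.27 to 10.59 and 7.15 for Cd44 against 9.78 to 10.68. Tumour 3 had 7.55 for Igf2bp1 against 7.47 to 7.48, and for the collagen genes 10.33 for Col1a1 against 7.63 to 8.21 and 12.81 for Col3a1 against 10.53 to 10.70. Among livers, liver 4 had 10.32 for Zbtb20 against 9.90 to 9.94, 7.50 for Cd44 against 8.89 to 9.13, 6.59 for the macrophage receptor gene Marco against 8.61 to 8.92 and 4.40 for Cyp2b9 against 11.85 to 12.79. Liver 3 had 3.68 for Lin28b against 3.49 to 3.52, 11.28 for Cebpa against 11.79 to 11.88 and 10.09 for Gpc4 against 10.59 to 10.66. Liver 2 had 10.04 for Foxa2 against 9.59 to 9.65, and liver 1 had 11.08 for Reln against 10.96.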

How the results depend on the processing

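The number of members past the threshold was 2 and stayed at 2 under 16 of 20 alternatives. It was 2 to 4 when 1 array at a time was left out, 4 without tumour 2, and 3 without tumour 4, with array weights (Gpc3 at 1.96, adjusted p = 0.0226) and with the mean of probe sets (Igf2bp3). Golm1 (3.46 to 3.82) and Vil1 (4.32 to 5.07) kept direction and call in all 21 alternatives each, Afp ranged from 1.01 to 2.46 and Gpc3 from 1.21 to 2.13. Small differences changed sign. With arrays centred on the 75th percentile Dlk1 was -0.0431, Igf2bp3 -0.0165 and Cd24a -0.177, and centred on housekeeping genes they were -0.111, -0.0848 and -0.245. Cd24a was also -0.322 with array weights, -0.789 without the arrays of low Xist, and -0.457 to 0.393 with 1 array at a time left out, where 4 of 9 cases turned its sign (-0.457, -0.355, -0.0751 and -0.0639). Centring on the 75th percentile and on housekeeping genes moved the median of all genes, -0.08, to -0.26 and -0.33. Calls over all genes numbered 6091, but 10310 centred on the 75th percentile (2328 higher, against 2926) and 4719 on housekeeping genes (1413 higher). With the replicate block 3552 genes passed, and of the members again 2, Golm1 at 3.81 and Vil1 at 4.99, while Igf2 (5.23), Foxa1 (0.768) and Sall4 (-0.503) no longer passed. Afp and Igf2bp3 probe sets disagreed: for Afp, tumour 3 stood 3.17 above the tumour mean, but 0.106 and 0.0211 on the 2 flat probe sets. Why these values moved was not tested. Values near 3.69 to 4.36, the TrpnX control, carry little signal over background.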
